A study of Homo sapiens with 12 samples.

Results

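HepG2, an established human hepatocyte-like line derived from a liver tumour, was kept for 96 h either in Plasmax, a culture medium modelled on human plasma, or in Plasmax made without its trace elements (Plasmax-TE), and both states were compared across all measured genes. The 3 Plasmax-TE and 3 Plasmax libraries make up 6 of the 12 libraries of the series. The other 6 are 3 from Plasmax-TE with iron put back (Plasmax-TE+Fe) and 3 from EMEM, the maintenance medium, here supplemented with pyruvate and glutamine. All 4 media carried 10% heat-inactivated fetal bovine serum, so neither Plasmax arm was free of what serum brings with it. Cells were moved to these media 24 h after seeding, received fresh medium at 48 h and were collected at 96 h. The sample labels do not list which elements were left out, and HepG2 stands for one tumour-derived line rather than for hepatocytes in general. Whether the 3 libraries of each medium are separate cultures is not stated, and the p-values below therefore speak only of the spread between libraries, which may be technical. Genes were kept as 1 entry per Ensembl identifier, and 10459 of 10940 had enough counts to be tested.

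Trace elements are metals and selenium that cells need in small amounts, as cofactors of enzymes and as signals read by dedicated sensors. Liver cells store iron in ferritin and secrete hepcidin, the hormone that closes the iron exporter ferroportin. They buffer zinc and copper with metallothioneins, whose genes are switched on by the zinc-sensing factor MTF1 at short metal response elements. Selenium enters proteins as selenocysteine, and the messenger RNAs of some selenoproteins are known to be lost when selenium is scarce while those of others are spared.

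The promoters of 4 genes described below are shown because each gene is a textbook case of control by a known regulator. Each run gives the 250 bases before the transcription start, 5′ to 3′ on the gene's strand, from RefSeq on GRCh38.p14. In MT2A (chr16:56608334-56608583, plus strand) and MT1X (chr16:56682220-56682469, plus strand), both metallothionein genes, capitals mark the metal response element core TGCACNC or TGCGCNC on either strand. In CYP1A1 (chr15:74725529-74725778, minus strand), a drug-metabolising cytochrome P450, capitals mark GCGTG, the core bound by the aryl hydrocarbon receptor (AHR) with ARNT, on either strand. In HAMP (chr19:35282278-35282527, plus strand), which encodes hepcidin, capitals mark GGCGCC, the core of the element through which bone morphogenetic proteins (BMPs) act on this gene.
MT2A: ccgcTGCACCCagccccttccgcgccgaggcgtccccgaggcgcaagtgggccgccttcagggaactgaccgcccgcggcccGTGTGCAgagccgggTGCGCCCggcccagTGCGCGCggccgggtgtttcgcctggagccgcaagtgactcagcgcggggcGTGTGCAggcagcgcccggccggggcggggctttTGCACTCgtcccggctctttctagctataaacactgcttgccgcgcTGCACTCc
MT1X: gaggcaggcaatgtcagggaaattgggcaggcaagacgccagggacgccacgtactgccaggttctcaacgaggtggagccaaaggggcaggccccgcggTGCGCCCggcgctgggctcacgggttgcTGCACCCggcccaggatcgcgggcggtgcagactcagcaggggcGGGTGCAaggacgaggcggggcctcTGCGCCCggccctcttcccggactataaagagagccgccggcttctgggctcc
CYP1A1: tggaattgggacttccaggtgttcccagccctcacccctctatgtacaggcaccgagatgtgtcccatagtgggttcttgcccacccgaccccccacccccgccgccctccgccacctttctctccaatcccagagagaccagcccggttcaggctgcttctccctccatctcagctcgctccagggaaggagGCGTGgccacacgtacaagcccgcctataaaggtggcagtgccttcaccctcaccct
HAMP: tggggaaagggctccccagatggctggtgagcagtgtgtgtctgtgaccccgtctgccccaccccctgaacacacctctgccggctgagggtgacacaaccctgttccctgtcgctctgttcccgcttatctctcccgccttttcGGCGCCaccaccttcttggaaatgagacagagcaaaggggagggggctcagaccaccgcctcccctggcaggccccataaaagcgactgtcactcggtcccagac
MT2A holds 7 matches and MT1X holds 4, whereas 24.8% of the 35116 RefSeq promoter stretches of this length hold at least 1 and 1.58% hold 3 or more. CYP1A1 holds 1 GCGTG, 57 to 53 bases before the start, a core found in 32.2% of the stretches. HAMP holds 1 GGCGCC, 105 to 100 bases before the start, found in 16.4%. It also holds TTCNNNGAA, the spacing recognised by STAT factors, 93 to 85 bases before the start, which 6.57% of the stretches hold. These are matches of letters, and binding was not measured. Elements farther than 250 bases before the start were not searched. The promoters of MT1A, MT1E, MT1F and MT1G are not shown.

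Total counts in the 6 libraries ran from 1562125 to 2228520, so that 1 count was worth 0.449 to 0.640 CPM, the unit in which all libraries have one common total, and changes of genes at a few CPM were detectable only when large. On principal components of all 12 libraries, 2 libraries, the first of Plasmax-TE (-35.5 on component 2) and the second of Plasmax-TE+Fe (-32.0), stood apart from the other 10, which lay between -8.1 and 19.6. All 13 hepatocyte and HepG2 marker genes were measured in these libraries. Of the other cell types' markers, 2 of 10 fibroblast, 1 of 10 endothelial and 3 of 10 immune genes were in the table, and 1 of each list passed the count filter. These were PDGFRB, listed at 0.542 to 5.98 CPM in the 6 libraries, the junction protein ESAM at 6.50 to 45.6 CPM, and lysozyme (LYZ) at 739 to 1667 CPM. ESAM was lower in all 3 Plasmax-TE libraries (log2 fold change -2.19 ± 0.27, adjusted p = 3.9e-05), and its part in the other results was not tested. In bulk RNA, fewer cells in a state and less RNA per cell cannot be told apart.

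Removal of the trace elements changed genes in both directions in nearly equal number. By edgeR's quasi-likelihood test, with p adjusted after Benjamini and Hochberg, 1176 of 10459 genes passed an adjusted p of 0.05 (11.2%). Of these, 587 were higher in Plasmax-TE (5.61%) and 589 lower (5.63%), and for 460 the log2 fold change was 1 or more in size (4.40%). These percentages are the background against which each gene group below can be read. The changes were mostly modest, with a median log2 fold change of 0.92 among the genes that rose and -0.85 among those that fell, and 27 rises and 42 falls reached a log2 fold change of 2. The 3 and 3 libraries did not overlap in 567 of the 587 and 579 of the 589 genes, compared with 30.5% of all genes tested. The genes were called from these same libraries, so the separation largely follows from the selection and adds no support. The smallest p that an exact permutation of 3 against 3 libraries can give is 0.1, and the tests borrow their estimate of spread from all genes instead. Single libraries weighed on the number called. Leaving out replicate 2 of Plasmax brought it to 477 (4.46%). It was 744 (6.97%) without replicate 1 of Plasmax-TE and 780 (7.29%) without replicate 1 of Plasmax. Leaving out replicate 2 or 3 of Plasmax-TE or replicate 3 of Plasmax gave 7.73%, 8.16% and 9.33%. With 3 runs of consecutive library numbers as a block the number called was 1859. A list count below from a fit without 1 library is to be read beside the share of that fit.

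**Figure D1:**
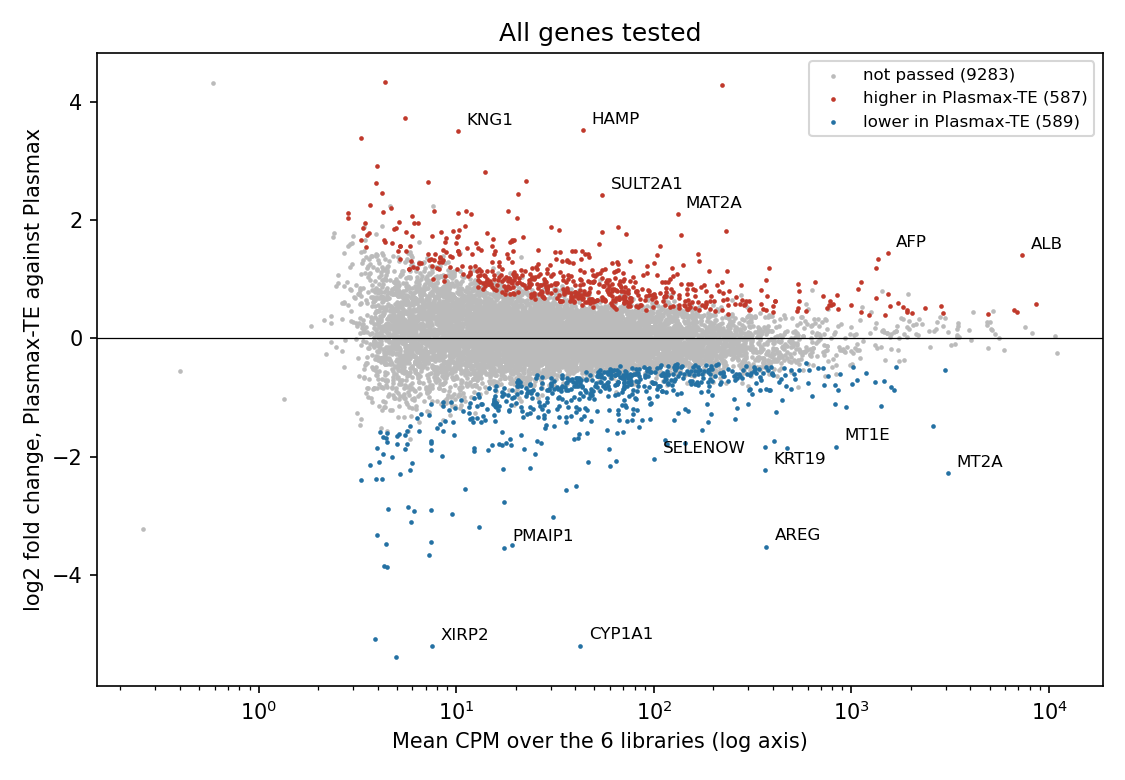
Log2 fold change of Plasmax-TE against Plasmax for every gene tested (y axis), against the mean CPM over the 6 libraries (x axis, log scale). Red points are the 587 genes called higher, blue points the 589 called lower and grey points those that did not pass, with CYP1A1, AREG and MT2A far below 0 and HAMP far above it.

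Below, levels are CPM after scaling by TMM factors, given for replicates 1, 2 and 3 in that order. Log2 fold changes are those of Plasmax-TE against Plasmax, ± SE, from 3 libraries in each medium, and adjusted p is that of edgeR's quasi-likelihood test over all genes. A gene is said to have risen or fallen only where adjusted p was under 0.05.

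HAMP rose more than any other gene of iron control. It stood at 8.15, 6.01 and 6.98 CPM in Plasmax and at 47.1, 95.3 and 99.5 CPM in Plasmax-TE. The groups are far apart, with replicate 1 the lowest of the Plasmax-TE libraries, and the log2 fold change was 3.52 ± 0.31 (11.5-fold, adjusted p = 8.0e-07). In liver cells HAMP is driven by BMP signals through SMAD factors. Of the 22 measured genes of that pathway HAMP and TFR2 rose and ACVR1 fell, so 13.6% were called beside 11.2% of all genes. The median of the 22 was 0.15, beside 0.02 for all genes. TFR2, the second transferrin receptor and part of the iron-sensing complex, went from 33.2, 22.5 and 27.9 to 59.6, 53 and 68.5 CPM (1.12 ± 0.22, adjusted p = 0.0030). ACVR1, a type I BMP receptor, went from 16.3, 18.0 and 15.4 to 7.58, 10.8 and 5.98 CPM (-1.0 ± 0.29, adjusted p = 0.032), and this call was lost without single libraries (up to adjusted p = 0.11 without Plasmax-TE replicate 3). The usual BMP readouts did not pass: ID1 had a log2 fold change of 0.21 ± 0.19 (adjusted p = 0.50), SMAD7 of 0.26 ± 0.36 (adjusted p = 0.70) and SMAD6 of 0.09 ± 0.33 (adjusted p = 0.89). The ligand BMP4, at 984, 1076 and 1146 CPM in Plasmax and 595, 1082 and 1080 CPM in Plasmax-TE, overlapped between the media and did not pass either (-0.22 ± 0.17, adjusted p = 0.46). The part of BMP signals in the rise of HAMP was not tested.

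Genes of iron uptake, storage, export and sensing moved less than HAMP, and those that passed all went up. Of 21 measured, 6 rose and 0 fell, with a median of 0.20. TF, the plasma iron carrier transferrin, stood at 831, 658 and 828 CPM in Plasmax and at 1247, 1174 and 1733 CPM in Plasmax-TE (0.84 ± 0.16, adjusted p = 0.0021), without overlap. NCOA4, the receptor that delivers ferritin to lysosomes for iron release, went from 226, 220 and 242 to 341, 337 and 347 CPM (0.57 ± 0.13, adjusted p = 0.0089). FBXL5, the iron-sensing subunit of the ubiquitin ligase that removes IRP2, went from 15.1, 11.5 and 6.52 to 24.9, 22.5 and 21.2 CPM (1.08 ± 0.29, adjusted p = 0.022). The remaining rises were those of the copper ferroxidase ceruloplasmin, CP (0.95 ± 0.26), the mitochondrial iron importer SLC25A28 (0.89 ± 0.27) and TFR2. TF and TFR2 kept their calls when any 1 library was left out, whereas NCOA4, FBXL5, CP and SLC25A28 lost theirs in at least 1 case, with adjusted p up to 0.065, 0.091, 0.14 and 0.14, and 3 members remained called without Plasmax replicate 2 or without Plasmax-TE replicate 1.

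The messenger RNAs of the classical targets of the iron-responsive element system did not pass. TFRC, the main transferrin receptor, stood at 71.5, 91.1 and 88.9 CPM in Plasmax and 52.0, 76.0 and 88.6 CPM in Plasmax-TE (-0.22 ± 0.23, adjusted p = 0.59). The ferritin heavy chain FTH1 had a log2 fold change of -0.16 ± 0.13 (adjusted p = 0.46) and the light chain FTL of -0.16 ± 0.17 (adjusted p = 0.59). Levels of FTL in Plasmax spread from 3596 to 6697 CPM, wider than the 4571 to 4731 CPM in Plasmax-TE. The ferroportin gene SLC40A1 was at 8.85 to 18.5 CPM in Plasmax and 13.5 to 22.8 CPM in Plasmax-TE (0.23 ± 0.33, adjusted p = 0.70). A value that misses the threshold does not show that a level stayed the same. Protein was not measured, so whether these targets changed at the protein level was not tested.

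Every metallothionein that was measured fell. MT2A, the most abundant, went from 4606, 5772 and 5020 CPM to 638, 1308 and 1215 CPM (-2.28 ± 0.24, adjusted p = 7.2e-06). MT1E went from 1249, 1392 and 1264 to 246, 429 and 422 CPM (-1.83 ± 0.22, adjusted p = 3.9e-05). Both were lowest in Plasmax-TE replicate 1, and neither overlapped between the media. The less abundant MT1G went from 77.8, 74.1 and 127 to 17.3, 25.6 and 33.7 CPM (-1.87 ± 0.28), and MT1X from 31.4, 46.1 and 47.5 to 11.9, 13.9 and 19.6 CPM (-1.47 ± 0.23). MT1F fell by 1.31 ± 0.24 and MT1A by 1.23 ± 0.22. All 6 calls held when any 1 library was left out. The MT1 genes are near-identical copies, and the split of reads among them by the authors' counting is uncertain.

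No zinc transporter fell with the metallothioneins. Of the 23 measured genes of the joint list, 6 fell and 1 rose, and the 6 are the metallothioneins, so the median of the whole list was -0.03. The 1 that rose was SLC39A5, a zinc importer, from 18.8, 17.5 and 28.4 to 27.6, 42.3 and 56.0 CPM (0.94 ± 0.26, adjusted p = 0.025), with overlapping groups. Its call was lost without any one of 4 libraries, Plasmax-TE replicate 2 or 3 or Plasmax replicate 1 or 2 (up to adjusted p = 0.13 without Plasmax replicate 2). SLC30A1, the zinc exporter that MTF1 also controls, stood at 65.2, 63.6 and 55.9 CPM in Plasmax and 54.7, 67.4 and 58.2 CPM in Plasmax-TE (-0.03 ± 0.16, adjusted p = 0.93). MTF1 itself had a log2 fold change of -0.17 ± 0.28 (adjusted p = 0.75).

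Selenoproteins split in both directions. SELENOW, a small selenoprotein, fell from 121, 131 and 231 CPM to 35.8, 29.7 and 53.3 CPM (-2.04 ± 0.24, adjusted p = 3.1e-05). GPX1, the cytosolic glutathione peroxidase, fell from 104, 116 and 107 to 85.6, 75.1 and 68.5 CPM (-0.52 ± 0.16, adjusted p = 0.042). SELENOW was far lower in each Plasmax-TE library, whereas the fall of GPX1 was small and its call was lost in 5 of the 6 cases of leaving out a library (up to adjusted p = 0.14). SEPHS2, the enzyme that makes selenophosphate and is itself a selenoprotein, rose from 154, 145 and 150 to 336, 267 and 272 CPM (0.96 ± 0.16, adjusted p = 7.1e-04). The plasma peroxidase GPX3 rose from 15.7, 14.5 and 16.8 to 32.5, 33.7 and 40.8 CPM (1.18 ± 0.24, adjusted p = 0.0030). SELENOP, the selenium carrier secreted by liver, was at 643, 499 and 485 CPM in Plasmax and 614, 994 and 1054 CPM in Plasmax-TE (0.71 ± 0.19, adjusted p = 0.020). Replicate 1 of Plasmax-TE lay within the Plasmax range for SELENOP, and its call was lost in 4 cases of leaving out a library, up to adjusted p = 0.11 without Plasmax replicate 2.

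The other 13 of 18 selenoproteins tested did not pass, and the median of the 18 was -0.06. Among them were GPX4, the peroxidase of membrane lipids (-0.26 ± 0.18, adjusted p = 0.38), the thioredoxin reductases TXNRD1 (-0.38 ± 0.22, adjusted p = 0.29) and TXNRD2 (-0.09 ± 0.29, adjusted p = 0.88), and SELENOH (-0.57 ± 0.36, adjusted p = 0.33). SELENOH had 15.7, 10.5 and 17.2 CPM in Plasmax and 7.04, 6.29 and 16.3 CPM in Plasmax-TE. In this gene replicate 3 of Plasmax-TE stayed within the Plasmax range. Of 12 genes that make selenocysteine or insert it into proteins, 0 passed in edgeR's test, with a median of 0.16, and limma-voom and DESeq2 called 0 and 0 of them. Without adjustment 2 of the 12 had p under 0.05.

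Copper and manganese genes gave scattered calls. Of 16 copper transporters and copper enzymes 3 rose and 1 fell: LOX, lysyl oxidase, rose from 1.25, 2.00 and 0.931 to 4.33, 6.29 and 5.98 CPM (1.95 ± 0.49, adjusted p = 0.015). The others were CP, COA6, which helps build the copper centre of cytochrome oxidase (0.68 ± 0.18), and XIAP, an inhibitor of apoptosis that also binds copper (-0.66 ± 0.19). None of these 4 calls held in every case of leaving out a library, and no member rose without Plasmax replicate 3. Of 12 manganese transporters and enzymes the mitochondrial arginase ARG2 fell from 71.5, 68.6 and 53.1 to 19.0, 33.3 and 29.9 CPM (-1.22 ± 0.25, adjusted p = 0.0044). Glutamine synthetase, GLUL (0.49 ± 0.14), and pyruvate carboxylase, PC (0.75 ± 0.24), rose. GLUL lost its call in 3 of the 6 cases of leaving out a library and PC in all 6 (adjusted p up to 0.15 for each). PC also missed the threshold with DESeq2 and with only both media in the fit.

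CYP1A1 had the lowest p of all genes. It stood at 96.0, 89.6 and 62.8 CPM in Plasmax and at 2.17, 3.15 and 1.09 CPM in Plasmax-TE, a log2 fold change of -5.19 ± 0.37 (adjusted p = 8.7e-08). No Plasmax-TE library held more than 7 counts, so the size of the fall is known only roughly, but no library of one medium came near the other. CYP1A1 is the best known target of AHR. Of 9 AHR pathway genes measured, 2 fell and 0 rose (median -0.22), and the second was STC2, a secreted stress protein (391, 419 and 426 CPM to 157, 237 and 248 CPM, -0.94 ± 0.22, adjusted p = 0.0085), which other stress factors also induce. The AHR targets TIPARP (0.42 ± 0.33, adjusted p = 0.44), AHRR (-0.06 ± 0.49, adjusted p = 0.96) and NQO1 (-0.22 ± 0.24, adjusted p = 0.60) did not pass. AHR itself was at 40.8, 24.0 and 10.2 CPM in Plasmax and 11.9, 17.5 and 25.6 CPM in Plasmax-TE, ranges that overlap almost wholly (-0.41 ± 0.40, adjusted p = 0.55).

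**Figure D2:**
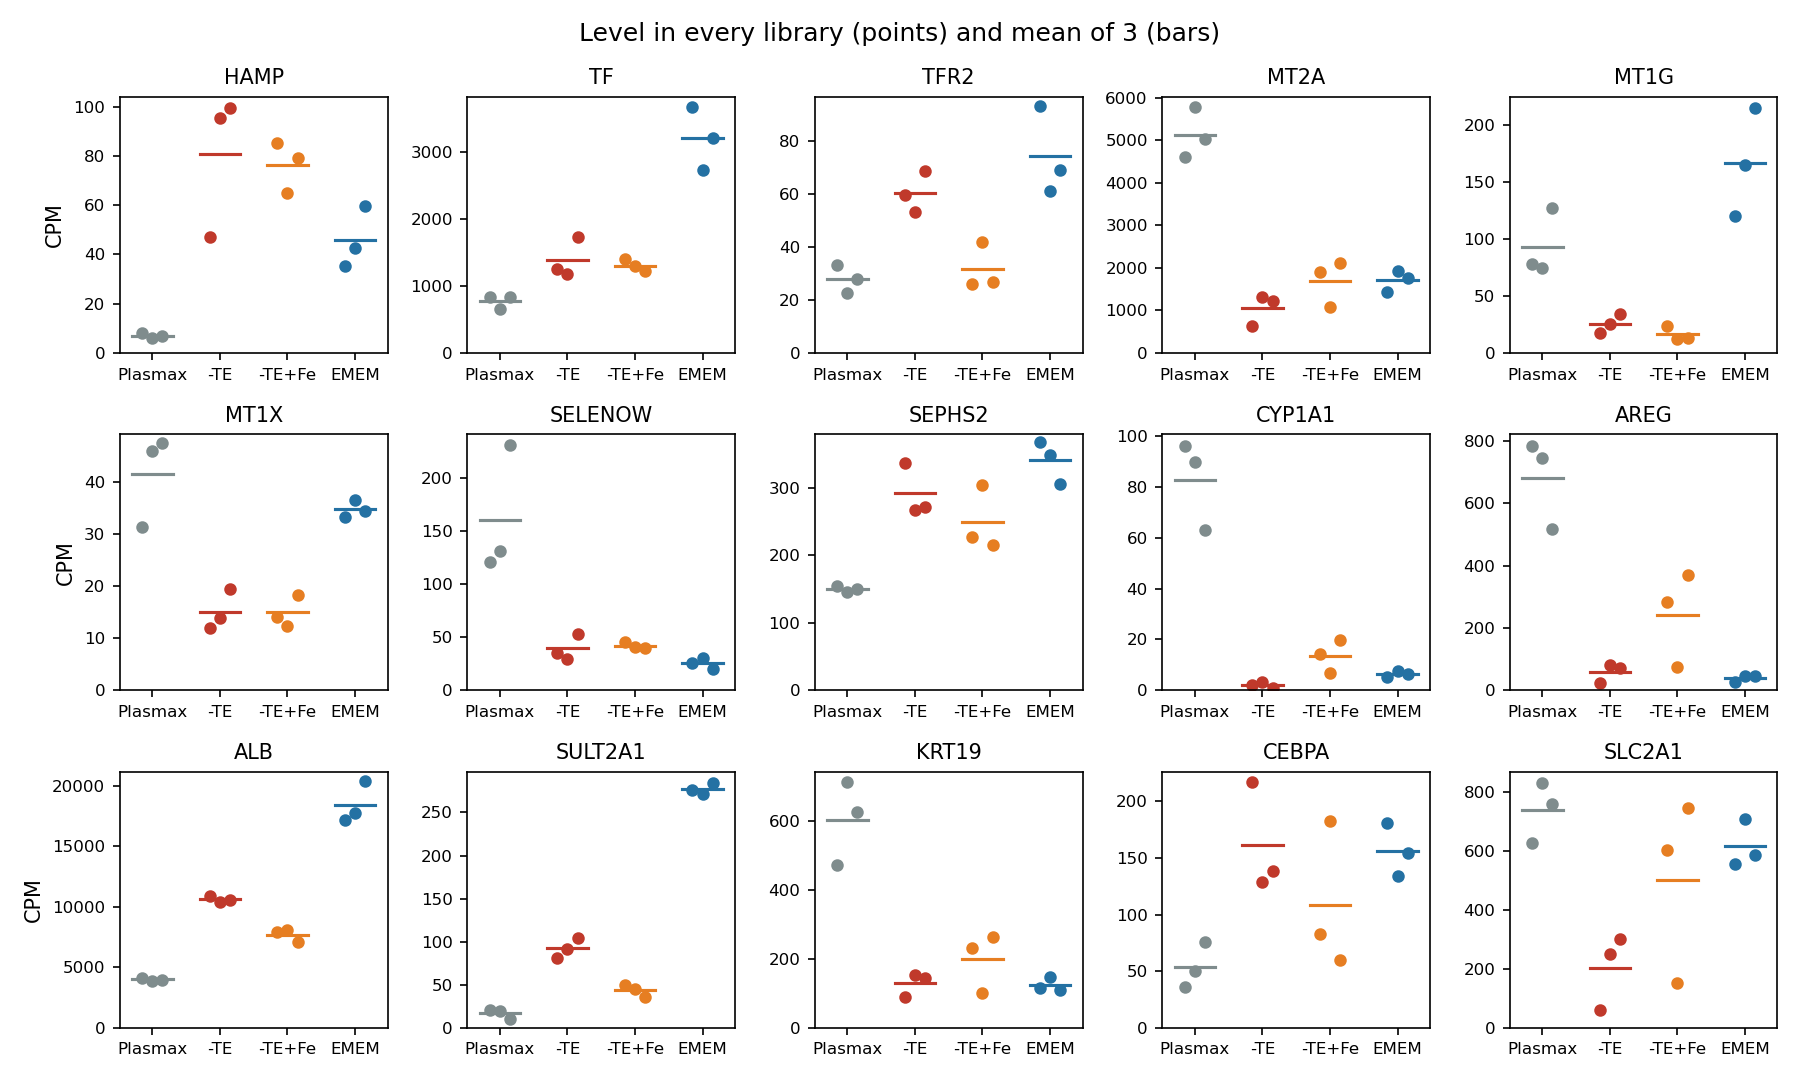
CPM in every library (points, replicates 1 to 3 from left to right) and mean of the 3 (bars) for 15 genes in Plasmax, Plasmax-TE, Plasmax-TE+Fe and EMEM, each y axis starting at 0. HAMP, ALB and SULT2A1 are higher in all 3 Plasmax-TE than in all 3 Plasmax libraries, MT2A, SELENOW, CYP1A1, AREG and KRT19 lower, and SLC2A1 is lowest in replicate 1 of Plasmax-TE and next in replicate 2 of Plasmax-TE+Fe.

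Many genes for proteins that the liver secretes rose. ALB, albumin, went from 4155, 3885 and 3989 CPM to 10850, 10430 and 10580 CPM (1.41 ± 0.11, adjusted p = 3.3e-07), and the libraries of each medium lay close together. AFP, the fetal counterpart of albumin, went from 914, 779 and 772 to 2366, 2290 and 2053 CPM (1.44 ± 0.14, adjusted p = 3.3e-06). With them, 10 of 19 genes for albumin-like and plasma transport proteins rose and 1 fell (median 0.74), including APOH, a phospholipid-binding plasma glycoprotein (1.19 ± 0.15), the inter-alpha-trypsin inhibitor chain ITIH3 (1.31 ± 0.22) and the retinol carrier RBP4 (0.74 ± 0.13). The 1 that fell was SERPINA1, alpha-1-antitrypsin (-0.87 ± 0.27, adjusted p = 0.044). It stood at 29.5, 25.5 and 39.6 CPM in Plasmax and at 9.75, 16.6 and 25.6 CPM in Plasmax-TE. The call of SERPINA1 was lost in 5 cases of leaving out a library, up to adjusted p = 0.18 without Plasmax-TE replicate 1. It was also lost with the replicate block and with only both media in the fit. Without Plasmax replicate 2, 9 of the list remained higher. ALB, AFP, APOH, ITIH3 and RBP4 passed whichever 1 library was left out. The level of SERPINA1 is low for a liver protein, and the hepatocyte markers went several ways: of 13 measured, 5 rose, 3 fell and 5 did not pass, among the last TTR (transthyretin, 0.35 ± 0.15), APOA2 (0.14 ± 0.11), APOB (0.20 ± 0.14) and HNF4A (0.22 ± 0.16).

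Among coagulation, complement and lipoprotein genes most calls were rises. Of 17 coagulation factors, kininogens and their inhibitors, 9 rose and 1 fell (median 0.64). KNG1, kininogen, went from 1.88, 1.5 and 1.40 to 34.7, 7.19 and 14.7 CPM (3.51 ± 0.65, adjusted p = 0.0017), and antithrombin, SERPINC1, from 30.7, 31.1 and 45.1 to 80.7, 83.2 and 97.9 CPM (1.28 ± 0.22, adjusted p = 8.9e-04). Factor X, F10 (0.89 ± 0.19), prothrombin, F2 (0.64 ± 0.15), and the fibrinogen chain FGB (0.95 ± 0.20) rose. Of 25 acute phase and complement genes 10 rose and 0 fell (median 0.68), led by C4BPA, which binds C4b (1.46 ± 0.27), and SERPING1, the C1 inhibitor, from 43.3, 26.5 and 28.9 to 166, 94 and 73.9 CPM (1.77 ± 0.30, adjusted p = 0.0010). Of 19 apolipoprotein and lipoprotein assembly genes 8 rose and 1 fell (median 0.55), among them MTTP, which loads lipid onto APOB (1.28 ± 0.22), APOC3 (1.32 ± 0.25), APOA5 (1.88 ± 0.41) and the hepatic lipase LIPC (0.78 ± 0.16). KNG1, SERPING1 and APOA5 were highest in Plasmax-TE replicate 1. Without that library their log2 fold changes were 2.73 (adjusted p = 0.0080), 1.37 (adjusted p = 0.0041) and 1.47 (adjusted p = 0.027). Without Plasmax replicate 2 the rises numbered 4 of the 17 coagulation, 5 of the 25 acute phase and 6 of the 19 lipoprotein genes. In that fit 225 of all 10693 genes tested rose, and F2 no longer passed (adjusted p = 0.072).

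Liver metabolism showed rises in several branches. Among 17 genes of steroid, bile acid and drug metabolism 8 rose and 0 fell (median 0.80). SULT2A1, which sulfates steroids and bile acids, went from 21.3, 20 and 10.7 to 81.2, 91.7 and 104 CPM (2.43 ± 0.21, adjusted p = 8.0e-07), and the oestradiol-inactivating HSD17B2 from 29.5, 31.6 and 23.7 to 101, 117 and 93 CPM (1.88 ± 0.18, adjusted p = 2.5e-06). The bile acid receptor NR1H4 (1.32 ± 0.21) and its target NR0B2, which represses bile acid synthesis (1.07 ± 0.20), both rose. Among 25 urea cycle and amino acid genes 8 rose and 0 fell (median 0.63). AGXT, which detoxifies glyoxylate, went from 3.76, 1.5 and 3.26 to 13, 14.4 and 10.3 CPM (2.15 ± 0.40, adjusted p = 0.0017). CPS1, the entry enzyme of the urea cycle (1.13 ± 0.26), and the sarcosine dehydrogenase SARDH (1.62 ± 0.26) rose as well. HAL, histidine ammonia-lyase, was at no more than 1.40 CPM in Plasmax and at 23.3, 2.7 and 4.89 CPM in Plasmax-TE. Its call (adjusted p = 0.026) was lost without Plasmax-TE replicate 1 (adjusted p = 0.20) and also without any 1 Plasmax library. Without Plasmax replicate 2, 5 members of each of these lists rose.

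In fatty acid oxidation, ketogenesis and lipid droplets 10 of 24 genes rose and 2 fell (median 0.52). ACAA1, the peroxisomal thiolase, went from 58.3, 63.1 and 80.5 to 125, 114 and 117 CPM (0.81 ± 0.16, adjusted p = 0.0027), and HADH, of mitochondrial beta-oxidation, from 16.9, 16.0 and 19.6 to 36.8, 39.1 and 43.5 CPM (1.18 ± 0.22, adjusted p = 0.0021). The 2 that fell were ETFB, a subunit of the electron transfer flavoprotein (-0.77 ± 0.20), and the droplet coat PLIN2 (-0.73 ± 0.19), while the coat PLIN5 rose (1.96 ± 0.48). ACADSB, of branched-chain acid breakdown (1.43 ± 0.14, adjusted p = 3.3e-06), and MPC1, a subunit of the mitochondrial pyruvate carrier (1.42 ± 0.15, adjusted p = 1.2e-05), were among the 15 genes with the lowest p. Without Plasmax replicate 2 the oxidation list had 3 rises, and neither ETFB (adjusted p = 0.071) nor PLIN2 (0.051) passed without Plasmax-TE replicate 1.

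Cholesterol synthesis rose in 6 of 22 genes and fell in 1 (median 0.58), with 21 of the 22 fold changes above 0. SQLE, squalene epoxidase, went from 28.9, 26.5 and 51.7 to 66.6, 65.6 and 88.6 CPM (1.03 ± 0.24, adjusted p = 0.0094), and did not pass without Plasmax replicate 2 (adjusted p = 0.075). The number of rises depended on single libraries and was 2 without Plasmax replicate 1 or 2 and 10 without Plasmax replicate 3. In fatty acid synthesis 2 of 19 genes rose and 2 fell (median 0.12), and 1 rose and 1 fell without Plasmax replicate 2.

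Glucose output and methionine metabolism each had a gene that stood out. G6PC, the enzyme that releases free glucose, went from 13.8, 4.51 and 1.40 to 40.1, 38.2 and 37.5 CPM (2.66 ± 0.37, adjusted p = 1.3e-04), and its transporter SLC37A4 rose by 1.21 ± 0.24. The Plasmax libraries of G6PC were spread widely while the Plasmax-TE libraries nearly coincided. MAT2A, which makes S-adenosylmethionine outside the adult liver, went from 53.3, 42.6 and 53.5 to 216, 201 and 225 CPM (2.10 ± 0.32, adjusted p = 3.0e-04). Its liver counterpart MAT1A rose by 0.70 ± 0.16, a call lost without Plasmax replicate 2 (adjusted p = 0.058). In the gluconeogenic and FOXO-responsive list 5 of 18 rose and 4 fell (median 0.40), the falls including TXNIP, which restrains glucose uptake (-0.86 ± 0.18), and TRIB1 (-1.28 ± 0.22). Of that list 3 rose without Plasmax-TE replicate 2 or 3 or Plasmax replicate 2 or 3, and 2 fell without Plasmax-TE replicate 2 or 3 or Plasmax replicate 1. In the methionine and one-carbon list 5 of 21 rose and 1 fell (median 0.02), and 1 rose without Plasmax replicate 2.

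Factors that specify liver rose in 7 of 21 cases and fell in 0 (median 0.31). CEBPA, a factor of mature hepatocytes, went from 36.4, 50.6 and 75.4 to 217, 129 and 139 CPM (1.56 ± 0.32, adjusted p = 0.0041), and the pioneer factor FOXA1 from 31.4, 29.5 and 14.9 to 74.7, 60.2 and 66.3 CPM (1.42 ± 0.28, adjusted p = 0.0027). FOXA2 (0.56 ± 0.15), FOXA3 (0.68 ± 0.18) and ONECUT2 (0.62 ± 0.18) rose by less and lost their calls without single libraries (adjusted p up to 0.10, 0.13 and 0.11), and 3 of the list rose without Plasmax replicate 2. Markers of progenitor and biliary cells fell in 7 of 16 cases and rose in 3 (median -0.69). KRT19, the biliary keratin, went from 473, 712 and 625 to 88.8, 152 and 145 CPM (-2.23 ± 0.27, adjusted p = 3.9e-05), and SOX4 from 357, 414 and 340 to 122, 173 and 135 CPM (-1.37 ± 0.17, adjusted p = 5.9e-05). SOX9, the biliary factor, fell by 0.68 ± 0.17, and the receptor GPRC5A also fell (-3.19 ± 0.49). The 3 that rose were all fetal liver genes, AFP, DLK1 (177, 190 and 211 to 385, 358 and 344 CPM, 0.91 ± 0.14, adjusted p = 2.9e-04) and GPC3 (0.49 ± 0.13), so the list did not move as one. The calls of SOX9 and GPC3 were each lost without any one of 4 libraries, Plasmax-TE replicate 2 or 3 or Plasmax replicate 1 or 2 (up to adjusted p = 0.081 and 0.11), and 4 of the list fell without Plasmax replicate 2.

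Among ligands and targets of the epidermal growth factor receptor (EGFR) and the ERK kinases, the genes that passed all fell. Of 23 measured, 10 fell and 0 rose (median -0.64). The ligand amphiregulin, AREG, went from 783, 746 and 516 to 24.4, 80.0 and 72.3 CPM (-3.52 ± 0.43, adjusted p = 3.9e-05). A further ligand, EREG, went from 27.0, 19.0 and 4.66 to 2.17, 1.35 and 2.72 CPM (-2.97 ± 0.56, adjusted p = 0.0021), and the ligands HBEGF (-1.60 ± 0.45) and TGFA (-0.87 ± 0.27) fell too. Of the target genes DUSP5, a phosphatase that switches ERK off, went from 59.0, 68.1 and 38.2 to 4.88, 10.3 and 4.35 CPM (-3.02 ± 0.40, adjusted p = 8.3e-05), and the membrane protein EMP1 fell by 3.50 ± 0.40. DUSP6, a further ERK phosphatase, fell by 0.64 ± 0.19 and cyclin D1, CCND1, by 0.61 ± 0.17. The falls of AREG, EREG, DUSP5 and EMP1 passed whichever 1 library was left out, while 5 of the list fell without Plasmax replicate 2 or without Plasmax-TE replicate 1. HBEGF and TGFA each lost their calls in 5 of the 6 cases of leaving out a library (up to adjusted p = 0.094 and 0.18, both without Plasmax replicate 2), and DUSP6 and CCND1 in 4 (up to adjusted p = 0.15 without Plasmax replicate 2 and 0.10 without Plasmax-TE replicate 1). TGFA also missed the threshold with limma-voom, with the replicate block and with only both media in the fit.

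Some immediate early genes and cytokines fell. Of 15 immediate early genes 5 fell and 0 rose (median -0.39), and the number stayed at 5 whichever library was left out. JUN, a subunit of AP-1, went from 118, 142 and 115 to 35.2, 52.1 and 44.6 CPM (-1.5 ± 0.19, adjusted p = 6.1e-05), and ZFP36L1, which destabilises messenger RNAs, from 652, 705 and 525 to 165, 205 and 192 CPM (-1.74 ± 0.17, adjusted p = 3.3e-06). ATF3 (-1.77 ± 0.34), KLF6 (-1.22 ± 0.21) and IER5 (-0.97 ± 0.19) were the others. Of 12 targets of NF-kB and cytokines 4 fell (median -0.58). IL11, a cytokine of the interleukin-6 family, went from 64.6, 91.1 and 51.2 to 9.21, 11.7 and 15.8 CPM (-2.49 ± 0.31, adjusted p = 4.0e-05), and it alone remained called without Plasmax replicate 2. Targets of YAP-TEAD and TGF-beta went both ways, with 3 of 16 lower, such as ANKRD1 (-1.21 ± 0.22), and 2 higher, the matricellular proteins CCN2 (0.80 ± 0.22) and THBS1 (0.93 ± 0.23), of which neither passed without Plasmax replicate 2 (adjusted p = 0.13 and 0.075).

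Genes of the cytoskeleton, adhesion and matrix fell in 15 of 38 cases and rose in 0 (median -0.63), and 12 or more fell whichever library was left out. The epithelial keratins KRT18 (956, 1164 and 1259 to 373, 587 and 598 CPM, -1.12 ± 0.20, adjusted p = 0.0016) and KRT8 (-0.85 ± 0.19) fell, although both belong to the hepatocyte markers. ITGA2, a collagen-binding integrin, went from 233, 181 and 127 to 33.6, 66.1 and 56.0 CPM (-1.78 ± 0.26, adjusted p = 2.2e-04). The tubulin TUBB2B (-1.77 ± 0.26), the calcium-binding S100A11 (-2.16 ± 0.32) and filamin, FLNA (-0.69 ± 0.16), were also lower. LAMB3, a laminin chain, had 45 counts over the Plasmax libraries and 1 over the Plasmax-TE libraries, a ratio of 46.5 whose 95% counting interval runs from 7.93 to 1880. Outside this list, TMSB10, which binds actin monomers (1820, 2208 and 1784 to 887, 967 and 764 CPM, -1.15 ± 0.13, adjusted p = 3.0e-05), and the protease inhibitor SERPINE2 (-1.84 ± 0.19, adjusted p = 5.6e-06) were among the genes with the lowest p.

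**Figure D3:**
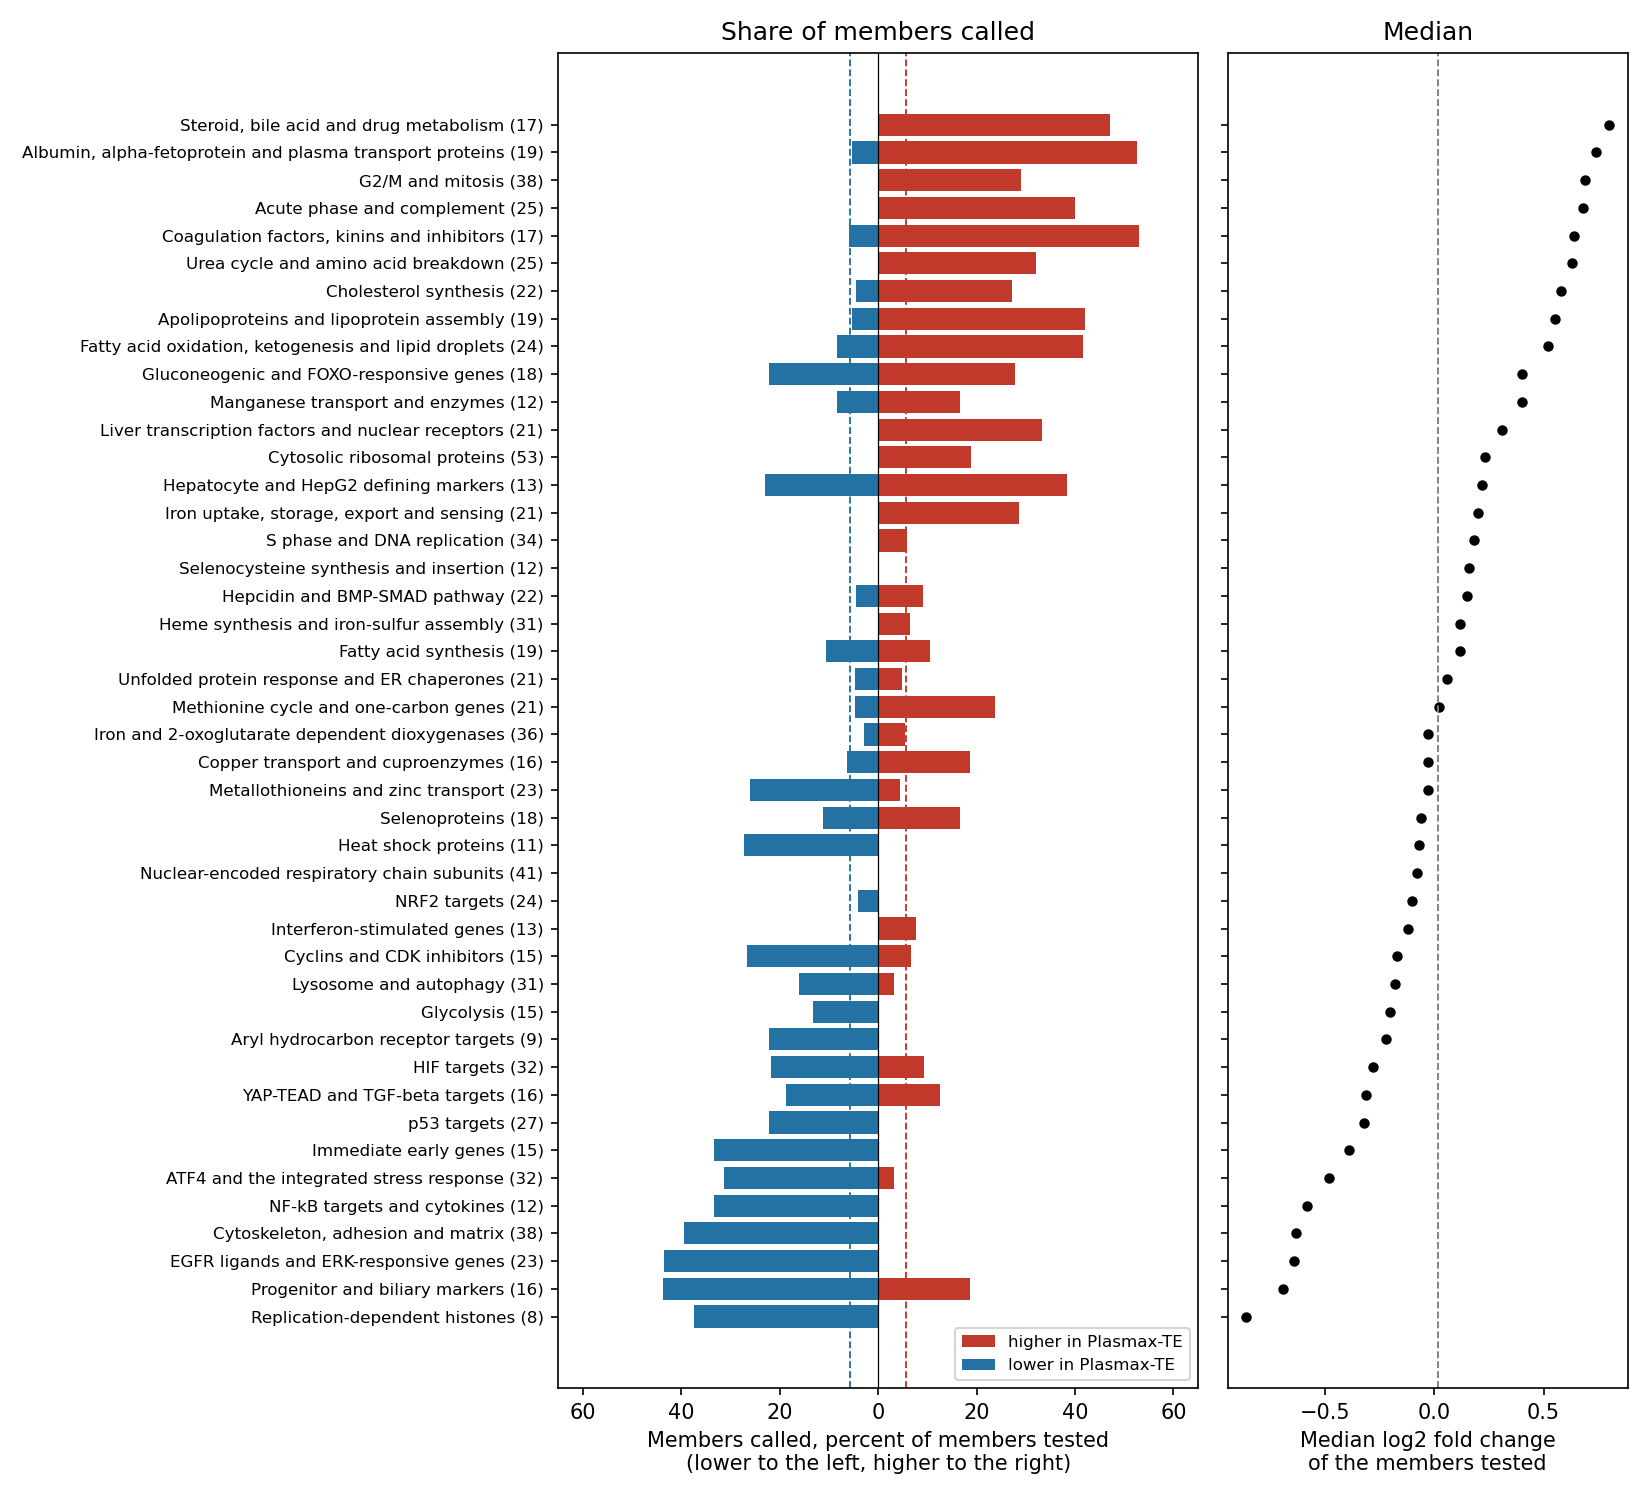
Left, share of the tested members of each gene list called higher (red, to the right) or lower (blue, to the left) in Plasmax-TE against Plasmax, with the shares over all genes (5.61% and 5.63%) as dashed lines; right, median log2 fold change of the members, with the median over all genes dashed. Number of members tested stands in brackets. Liver secretory and metabolic lists lie at the top together with the G2/M and mitosis list (median 0.69), and growth factor, cytoskeleton, progenitor and histone lists at the bottom.

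Calls among mitotic genes were all rises, and those among regulators of the cell cycle were mostly falls. Of 38 G2/M and mitosis genes 11 rose and 0 fell (median 0.69), and 35 of the fold changes were above 0. CENPE, a kinetochore motor, went from 21.3, 22.0 and 19.6 to 47.1, 48.6 and 41.9 CPM (1.13 ± 0.18, adjusted p = 4.3e-04), and the proliferation marker MKI67 from 38.2, 32.5 and 54.9 to 79.1, 70.6 and 77.2 CPM (0.84 ± 0.20, adjusted p = 0.011). Of 34 S phase genes 2 rose (median 0.18), and 0 rose without Plasmax-TE replicate 3 or Plasmax replicate 1 or 2. Of 15 cyclins and inhibitors of cyclin-dependent kinases 4 fell and 1 rose (median -0.17). Of the inhibitors 3 fell: CDKN1A, or p21, from 196, 299 and 290 to 75.3, 109 and 83.7 CPM (-1.55 ± 0.22, adjusted p = 1.8e-04), with CDKN2A (-1.70 ± 0.26) and CDKN2B (-2.76 ± 0.50). The fourth fall was that of CCND1. A further inhibitor, CDKN2C, rose, from 1.25, 2.50 and 3.72 to 8.67, 6.74 and 8.16 CPM (1.57 ± 0.47, adjusted p = 0.037), a call lost in 5 of the 6 cases of leaving out a library (up to adjusted p = 0.12 without Plasmax replicate 2). Only 4 of the mitotic genes rose without Plasmax replicate 2, where MKI67 no longer passed (adjusted p = 0.086), whereas 12 rose without Plasmax-TE replicate 1. Replication-dependent histones, whose messages mostly lack poly(A) tails, fell in 3 of 8 cases (median -0.86), such as H2BC21 from 40.8, 42.6 and 41.0 to 19.5, 8.54 and 8.70 CPM (-1.77 ± 0.35, adjusted p = 0.0030). Only 1 of the 8 fell without any one of 4 libraries, Plasmax-TE replicate 2 or 3 or Plasmax replicate 1 or 2.

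Targets of p53 fell in 6 of 27 cases and rose in 0 (median -0.32). PMAIP1, or NOXA, which promotes apoptosis, went from 36.4, 36.5 and 23.7 to 1.62, 3.15 and 3.26 CPM (-3.54 ± 0.35, adjusted p = 3.3e-06). GDF15, a secreted stress signal, went from 3744, 4159 and 3509 to 790, 1625 and 1660 CPM (-1.49 ± 0.24, adjusted p = 6.2e-04). Targets of ATF4, the factor of the integrated stress response, fell in 10 of 32 cases and rose in 1 (median -0.48), including DDIT4, an inhibitor of mTORC1 (-1.38 ± 0.27), and the cystine transporter SLC7A11 (678, 539 and 537 to 150, 259 and 328 CPM, -1.25 ± 0.35, adjusted p = 0.027). GDF15, STC2 and DDIT4 belong to several stress lists. SLC7A11, the 1 of 24 NRF2 targets to pass, lost its call without Plasmax-TE replicate 1 or 2 or Plasmax replicate 1 or 2 (up to adjusted p = 0.093 without Plasmax-TE replicate 1) and with DESeq2. Between 5 and 9 ATF4 targets and between 4 and 6 p53 targets fell when 1 library was left out. The 1 rise among the ATF4 targets was lost whichever library was left out.

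SLC2A1, SLC2A3, PKM and ENO1, of glucose transport and glycolysis, fell and were lowest in replicate 1 of Plasmax-TE, the library that stood apart. SLC2A1, the glucose transporter GLUT1, went from 628, 832 and 759 CPM to 61.8, 250 and 302 CPM (-1.85 ± 0.44, adjusted p = 0.010), with Plasmax-TE replicate 1 far below the other 2. Without that library its log2 fold change was -1.42 (adjusted p = 0.020). SLC2A3, or GLUT3, fell by 1.58 ± 0.30 and NDRG1, a hypoxia-induced gene, by 1.26 ± 0.23. Of 32 targets of the hypoxia-inducible factors (HIF) 7 fell and 3 rose (median -0.28), of which 6 or 7 falls and 0 to 3 rises remained when 1 library was left out. Of 15 glycolytic genes PKM (-0.97 ± 0.27) and ENO1 (-0.87 ± 0.25) fell and 0 rose (median -0.20), so 13.3% were called, near the 11.2% of all genes. Neither passed without Plasmax-TE replicate 1 (adjusted p = 0.081 and 0.10), nor without Plasmax replicate 2 or 3. Heat shock proteins fell in 3 of 11 cases, such as HSPH1 (-1.02 ± 0.22), and 1 of these remained without Plasmax-TE replicate 1.

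Genes of heme, iron-sulfur clusters and respiration gave calls near or below the background. In heme synthesis and iron-sulfur assembly 2 of 31 genes rose (median 0.12), among them the assembly factor ISCA2 (0.92 ± 0.28), and 0 passed without Plasmax-TE replicate 1 (ISCA2 adjusted p = 0.054). Of 36 dioxygenases that use iron and 2-oxoglutarate 2 rose and 1 fell (median -0.03), and 0 passed without Plasmax replicate 2 or 3. Of 41 nuclear-encoded respiratory chain subunits 0 passed in edgeR's test (median -0.08), 8 had an unadjusted p under 0.05, and limma-voom called 0 and DESeq2 0. In the unfolded protein response 1 of 21 rose, DNAJB9 (1.08 ± 0.25), and 1 fell (median 0.06), a fall lost without single libraries. Ribosomal protein genes rose in 10 of 53 cases by small amounts (median 0.23), such as RPL13A (367, 310 and 436 to 578, 667 and 862 CPM, 0.92 ± 0.18, adjusted p = 0.0022). Without Plasmax replicate 2, 2 of the 53 rose, beside 225 of all 10693 genes tested in that fit. In lysosome and autophagy 5 of 31 fell and 1 rose (median -0.18), with GABARAPL1 from 108, 112 and 98.2 to 30.3, 45.4 and 44.6 CPM (-1.39 ± 0.21, adjusted p = 3.3e-04), the lysosomal membrane protein LAMP1 (-0.68 ± 0.13) and the autophagy receptor SQSTM1 (-0.88 ± 0.21). Of that list 3 fell without Plasmax replicate 2, and the 1 rise was lost without any 1 library other than Plasmax-TE replicate 1. Of 13 interferon-stimulated genes BST2 rose (0.68 ± 0.17) and 0 fell, and 0 passed without Plasmax-TE replicate 2 (BST2 adjusted p = 0.076) or without Plasmax replicate 1.

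Among the genes with the largest changes, some belonged to none of these groups. NAALADL1, a peptidase, went from 2.51, 2.50 and 5.12 to 24.9, 27.0 and 22.3 CPM (2.82 ± 0.33, adjusted p = 3.1e-05), and the prolactin receptor PRLR from 2.51, 2.00 and 1.40 to 19.0, 8.99 and 9.24 CPM (2.64 ± 0.46, adjusted p = 0.0011). TNFSF10, the death ligand TRAIL, which is also in the FOXO-responsive list, rose by 2.45 ± 0.38. The small nucleolar RNA SNORD13 was at 37.0, 17.5 and 12.1 CPM in Plasmax and at 1022, 169.5 and 76.7 CPM in Plasmax-TE (4.29 ± 0.90, adjusted p = 0.0044), with replicate 1 far above the other 2, and without that library its log2 fold change was 2.53 (adjusted p = 0.033). Further rises were those of CSF3R, the receptor of granulocyte colony-stimulating factor (2.15 ± 0.47), ACSM2B, which activates medium-chain fatty acids (2.15 ± 0.38), PCOLCE, an enhancer of procollagen processing (2.12 ± 0.36), and IL22RA1, a subunit of the interleukin-22 receptor (2.10 ± 0.36). These 4 passed whichever 1 library was left out. The matrix protease MMP3 went from 11.3, 18.0 and 11.2 to 1.08, 0.899 and 1.09 CPM (-3.66 ± 0.51, adjusted p = 1.4e-04). The membrane proteins TMEM156 (-3.44 ± 0.58) and TMEM158 (-3.10 ± 0.53), the Golgi protein GOLM1 (-2.92 ± 0.62), G0S2, an inhibitor of the lipase that opens lipid droplets (-2.90 ± 0.65), and the matrix proteoglycan biglycan, BGN (-2.84 ± 0.54), fell as well, and of these G0S2 did not pass without Plasmax replicate 2 (adjusted p = 0.066). RAB3B, a GTPase of vesicle release, went from 95.3, 110 and 106 to 24.4, 27.0 and 22.3 CPM (-2.07 ± 0.17, adjusted p = 3.4e-07). XIRP2, an actin-binding repeat protein, had 84 counts over the Plasmax libraries and 2 over the Plasmax-TE libraries, a ratio of 43.4 with a 95% counting interval from 11.6 to 364. These intervals cover counting error only.

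Few genes passed when iron alone was put back into the medium without trace elements. Plasmax-TE+Fe differed from Plasmax-TE in 27 genes (0.258%), 9 higher and 18 lower, and from Plasmax in 126 genes (1.20%), 53 higher and 73 lower. The 2 comparisons share libraries with the main one, so values are set side by side and no overlap is counted. The 27 calls are fragile, since 0 remained without Plasmax-TE replicate 2 or 3 or Plasmax-TE+Fe replicate 1 or 3, or with only the 6 libraries compared, while 229 genes passed without Plasmax-TE+Fe replicate 2. In DESeq2 the count was 81 and in limma-voom 20, and with 3 runs of consecutive library numbers as a block 152 genes passed. Both libraries that stood apart on component 2 carry adjacent library numbers, 87 and 88.

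HAMP stood with iron at 85.2, 64.8 and 79.2 CPM, within the range of the Plasmax-TE libraries (Plasmax-TE+Fe against Plasmax-TE -0.08 ± 0.23, adjusted p = 0.96). TF and NCOA4 likewise stood at 0.75 ± 0.16 and 0.59 ± 0.13 above Plasmax with iron (adjusted p = 0.020 and 0.031). TFR2 and FBXL5 stood at 0.17 ± 0.23 and -0.18 ± 0.33 from Plasmax with iron, but their differences from Plasmax-TE, -0.94 ± 0.22 and -1.26 ± 0.29, did not pass (adjusted p = 0.070 and 0.074). Among metallothioneins MT2A was at 1897, 1078 and 2117 CPM (0.69 ± 0.23 against Plasmax-TE, adjusted p = 0.30) and MT1X at 14.2, 12.3 and 18.4 CPM (-0.01 ± 0.26, adjusted p = 1.0), and all 6 missed the threshold against Plasmax-TE. SELENOW was at 46.0, 40.6 and 40.3 CPM (0.11 ± 0.26, adjusted p = 0.95).

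Other genes lay nearer their Plasmax level with iron. CYP1A1 was at 14.2, 6.68 and 19.9 CPM, higher than all Plasmax-TE and lower than all Plasmax libraries (2.60 ± 0.45 against Plasmax-TE, adjusted p = 0.024). AREG was at 283, 74.5 and 370 CPM, with replicate 2 inside the Plasmax-TE range (2.03 ± 0.42, adjusted p = 0.037). Liver genes that fell with iron were AGXT (-2.12 ± 0.39, adjusted p = 0.024), SULT2A1 (-1.07 ± 0.19, adjusted p = 0.024), FABP1, the liver fatty acid binding protein (-0.94 ± 0.16, adjusted p = 0.024), FGB (-0.99 ± 0.20, adjusted p = 0.030), ACAA1 (-0.86 ± 0.16, adjusted p = 0.027), MPC1 (-0.84 ± 0.15, adjusted p = 0.024) and LIPC (-0.81 ± 0.16, adjusted p = 0.027). With iron AGXT, FGB, ACAA1 and LIPC had log2 fold changes of -0.04 to 0.04 against Plasmax, whereas SULT2A1 still stood 1.36 ± 0.22 above it (adjusted p = 0.0027). ALB, at 7880, 8053 and 7068 CPM, lay between the libraries of both other media without overlap, yet its difference from Plasmax-TE did not pass (-0.47 ± 0.11, adjusted p = 0.074).

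**Figure D4:**
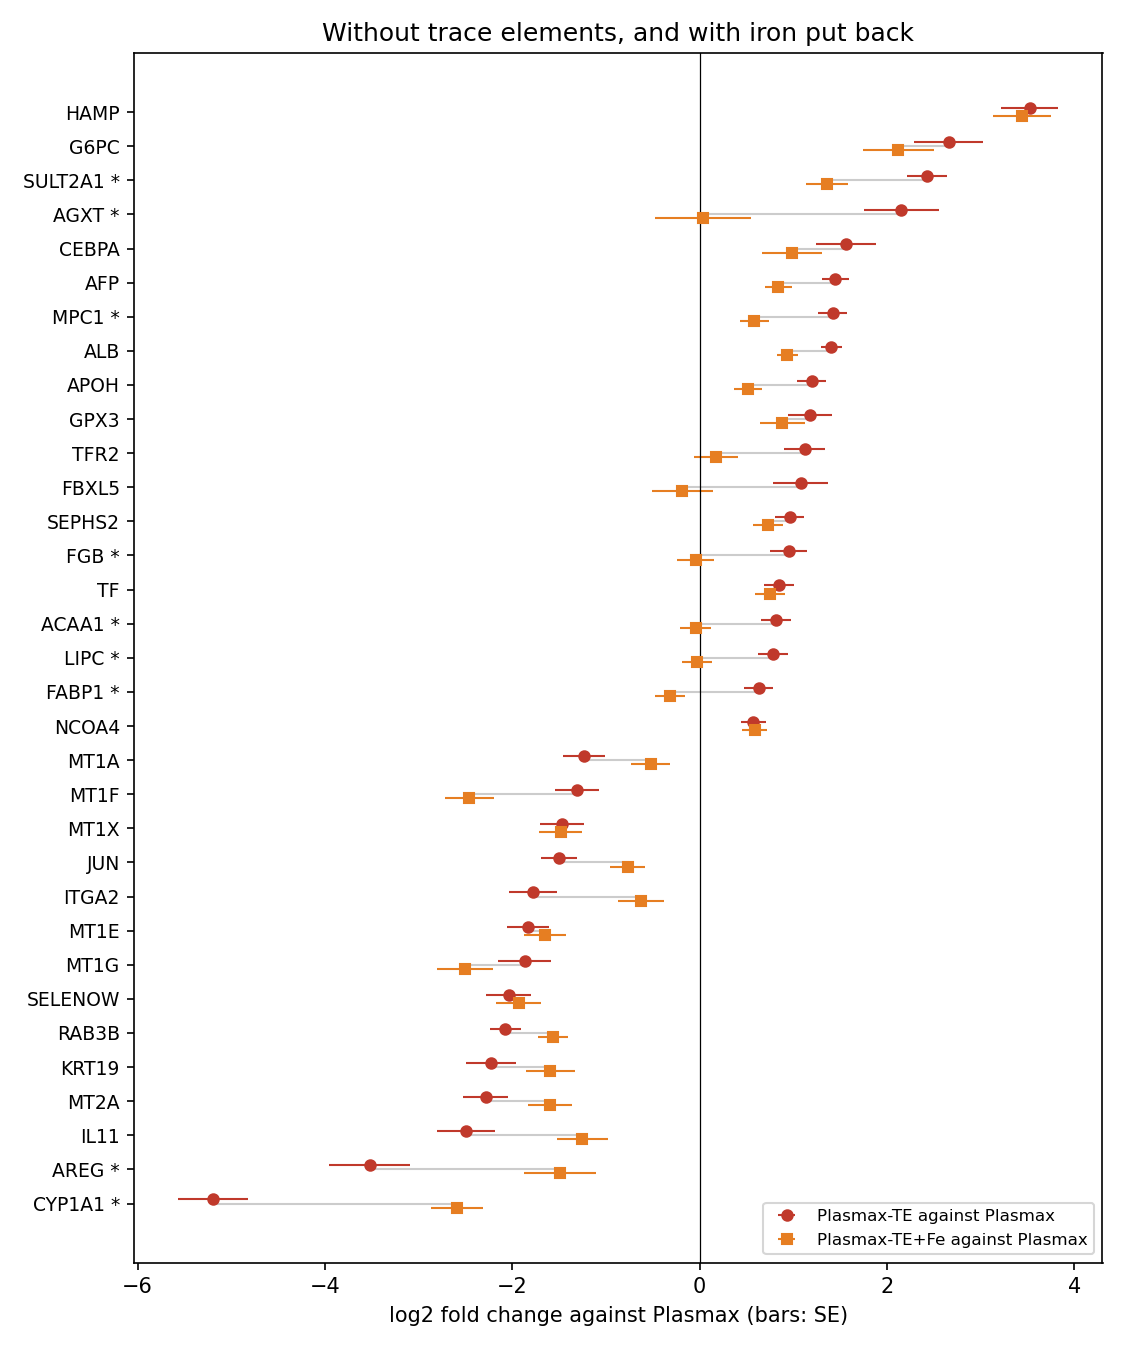
Log2 fold change ± SE of Plasmax-TE against Plasmax (red circles) and of Plasmax-TE+Fe against Plasmax (orange squares) for 33 genes described in the text, ordered by the first. A star marks the genes whose difference between Plasmax-TE+Fe and Plasmax-TE passed an adjusted p of 0.05, and both sets share the Plasmax libraries.

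In EMEM, shown for its level alone, HAMP stood at 35.3, 42.6 and 59.5 CPM, CYP1A1 at 5.13, 7.67 and 6.61 CPM, SELENOW at 26.3, 30.7 and 20.3 CPM and KRT19 at 116, 148 and 111 CPM. MT2A was at 1442, 1920 and 1761 CPM there, and MT1G was at 120, 165 and 214 CPM, overlapping its 3 Plasmax levels. By level the media ranked Plasmax first for CYP1A1, KRT19 and SELENOW, and Plasmax last for HAMP.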

How the data were processed

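RNA of 12 HepG2 libraries was measured with QuantSeq 3' mRNA sequencing, which reads mainly the 3' end of each messenger. The authors deposited 1 table of raw counts per gene. Per the submitters' processing notes, the genome build was hg19 (GRCh37) and the tools named are STAR 2.7.5b, featureCounts 1.6.3, cutadapt 1.16, FastQC 0.72 and limma 3.40.6. No source used here gives the strand setting, so reads of overlapping and antisense genes cannot be told apart. The deposited table holds 10994 entries, and the third-highest library of every gene is at 4.04 CPM or more, so lower genes are not analysed here. Of 53 identifiers listed several times with identical counts 54 surplus entries were dropped, leaving 10940 genes.

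All 12 libraries were fitted together in edgeR 4.0.16 (R 4.3.3) with TMM factors, filterByExpr at its defaults (481 genes removed) and the quasi-likelihood test, with Benjamini-Hochberg adjustment over 10459 genes and 8 residual degrees of freedom. Genes were called at an adjusted p under 0.05. The alternatives used limma 3.58.1, DESeq2 1.42.0, other scaling, filters and blocks, and fits without single libraries. The method was also tested on simulated data. Genes were named by rank, apart from those not reported here: 15 at each end of the fold changes among called genes of at least 5 CPM without overlap, 15 by lowest p, up to 6 per list by lowest p, the metallothioneins, selenoproteins and AHR genes, and the ferritins, TFRC and SLC40A1. APOA2, APOB, BMP4, DUSP6, FLNA, GPC3, HBEGF, HNF4A, ID1, MTF1, SERPINA1, SLC30A1, SLC39A5, SMAD6, SMAD7, SOX9, TGFA and TTR were named after their values were seen. The members and lists were chosen with earlier results of these data known. RefSeq promoter stretches come from GRCh38.p14, and no coordinates were moved between builds. Some results are not reported here.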

Additional observations from a re-analysis of the deposited data

How the results depend on the processing

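The 1176 calls of Plasmax-TE against Plasmax became 1024 with the replicate block, 1112 with DESeq2, 1126 with limma-voom, 1191 with RLE factors, 1203 without a filter and 1002 with only both media in the fit. With only both media and the replicate block the count was 1167. Same-numbered libraries of both media correlated at 0.08, 0.04 and 0.07 in their deviations, each best with its own number. These correlations are small, and the main fit did not take numbers as pairs. The runs of library numbers group the Plasmax and Plasmax-TE libraries as the replicate numbers do, and differ from them only for Plasmax-TE+Fe. With 3 runs of library numbers as a block the counts were 1859 for this comparison, 152 for Plasmax-TE+Fe against Plasmax-TE and 372 for Plasmax-TE+Fe against Plasmax. Leaving out 1 library gave 477 to 990, 0 to 229 and 31 to 97 calls, in that order. For Plasmax-TE+Fe against Plasmax-TE the count was 81 with DESeq2, 99 without both libraries that stood apart, and 0 with only both media in the fit, with or without the replicate block (19 with that block in the fit of all media). For Plasmax-TE+Fe against Plasmax it was 77 with only both media. Where counts moved, the cause was not tested.

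Of the 146 genes named as called, 106 were called under every alternative that could be run for them (13 to 17 each). A change of sign occurred only in genes that had not passed. With 1 library left out the log2 fold change ran from -0.28 to 0.36 for AHRR, from -0.35 to 0.02 for BMP4, from -0.34 to 0.15 for LYZ, from -0.39 to 0.04 for NQO1, from -0.12 to 0.04 for SLC30A1, from -0.05 to 0.48 for SLC40A1, from -0.33 to 0.35 for SMAD6, from -0.05 to 1.03 for PDGFRB, from -0.25 to 0.07 for TXNRD2, from -0.80 to 0.10 for AHR, from -0.36 to 0.07 for FTL and from -0.40 to 0.08 for MTF1. Without both libraries that stood apart it was 0.03 for AHRR, 0.02 for BMP4, 0.15 for LYZ, 0.04 for NQO1 and SLC30A1 and -0.05 for SLC40A1. It was 0.01 for AHRR with limma-voom. Depth limits genes of a few CPM, where 1 count is worth 0.449 to 0.640 CPM.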
